A study of Homo sapiens with 20 samples.

Results

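This comparison asked what happened to gene expression when TAZ was depleted in cells whose beta-catenin pathway had been switched on by depletion of APC. It set the 4 arrays of MII cells that had received siRNA against both APC and TAZ (siAPC/siTAZ) against the 4 arrays of MII cells that had received siRNA against APC (siAPC), 8 of the 20 arrays in the series, chosen by their labels alone. MII, also called MCF10-T1k, is a human breast epithelial line transformed with RAS. The other arrays were 4 of cells given siRNA against GFP (the control), 4 of cells given siRNA against beta-catenin (sibcat) and 4 of cells given siRNA against beta-catenin and TAZ (sibcat/siTAZ). Per the labels, all groups were grown in DMEM/F12 with HS, insulin, EGF, hydrocortisone and cholera toxin and were transfected with RNAi MAX, a lipid reagent, and no other treatment is named. No group with TAZ siRNA alone was analysed here. The sources used here do not give the siRNA sequences, the dose of each siRNA, the total siRNA load of each group or the time to harvest. The replicates are labelled biological, with no word on whether they were separate cultures, so the p-values measure the spread between these samples.

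TAZ, encoded by WWTR1, is a transcriptional coactivator that has no DNA-binding domain of its own and reaches promoters and enhancers through the TEAD factors, as does its relative YAP1. The Hippo kinases keep both coactivators out of the nucleus by phosphorylation. APC is a scaffold of the destruction complex, which sends beta-catenin (encoded by CTNNB1) to the proteasome. When APC is lost, beta-catenin accumulates and drives the TCF and LEF factors, and AXIN2 is one of the genes they induce.

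The TAZ siRNA lowered its own target. WWTR1 read 11.20, 11.10, 11 and 10.92 (log2 signal) in the 4 control arrays, 10.61, 10.60, 10.67 and 10.69 in the siAPC arrays and 7.91, 7.98, 8.02 and 8 in the siAPC/siTAZ arrays. All 4 siAPC/siTAZ arrays lay below all others, and the change from siAPC was -2.67 ± 0.054 (log2, SE, adjusted p = 2.77e-18), a 6.34-fold fall, with all 3 WWTR1 probe sets lower. The adjusted p-values come from limma, with Benjamini-Hochberg adjustment over the 19775 genes tested, and a gene was called at an adjusted p under 0.05. APC was already below its control level after APC siRNA alone. APC read 7.28, 7.42, 7.33 and 7.35 (log2 signal) in the siAPC arrays and 6.85, 6.94, 6.78 and 6.99 in the siAPC/siTAZ arrays. These groups did not overlap, and APC changed by a further -0.46 ± 0.053 (log2, SE, adjusted p = 5.14e-07). Only 2 of the 5 APC probe sets were called lower, 2 others read 0.14 and 0.18 and were not called, and the mean over all 5 changed by -0.10 (adjusted p = 0.171). CTNNB1, a target of neither siRNA here, was 0.28 ± 0.0489 (log2, SE, adjusted p = 8.63e-05) higher, and all 3 of its probe sets rose. The 2 groups compared therefore differed in APC and CTNNB1 mRNA as well as in WWTR1, and the part of these differences in the results below was not tested.

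The arrays of all groups were alike in scale, with array medians between 5.07 and 5.11 on the log2 scale, and the lowest correlation of an array with another of its group was 0.9964. The line's epithelial markers were well expressed: the mean signal over the 6 measured (KRT5, KRT14, KRT18, KRT8, CDH1 and EPCAM) lay between 11.38 and 11.42 in the siAPC arrays and between 10.83 and 10.90 in the siAPC/siTAZ arrays. Of 8 leukocyte markers, 4 (among them PTPRC, at 2.72 and 2.68) were among the lowest 25% of genes, below 4.22. CD14 (0.56) and ITGAM (0.22) rose, and the mean over the 8 lay between 4.02 and 4.15 in the siAPC arrays and between 4.17 and 4.25 in the siAPC/siTAZ arrays, without overlap. Of 8 endothelial markers, 3 (among them CDH5) were as low, PECAM1 (0.50) rose, EMCN (-0.37) and ESAM (-0.30) fell, and the mean ranges, 4.22 to 4.37 and 4.19 to 4.26, overlapped. The signal at the 3' end of ACTB minus that at its 5' end, a sign of RNA integrity or labelling, was 1.56 ± 0.0265 (log2, SD, n = 4) in siAPC and 1.98 ± 0.0839 in siAPC/siTAZ (exact two-sided permutation p = 0.0286, adjusted over 2 genes 0.0572). With 4 arrays a group, no smaller exact p can be reached. For GAPDH the difference between groups was 0.032 (exact two-sided permutation p = 0.0857, adjusted 0.0857). The part of this shift in the results was not tested.

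Adding TAZ siRNA moved a large share of the transcriptome. Of 19775 genes, 8607 were called (43.5% of genes tested), 4102 higher (20.7%) and 4505 lower (22.8%). In 8393 genes (42.4%) the 4 siAPC/siTAZ arrays did not overlap the 4 siAPC arrays. Most changes were small, with a median over all genes of -0.03 on the log2 scale, and 864 genes (4.37%) changed by at least 2-fold, 394 up and 470 down. The largest changes were falls: 109 genes fell at least 4-fold against 40 that rose as much, and at 8-fold the numbers were 44 and 5. For reference, siAPC/siTAZ against the control gave 9338 calls (47.2%), with 23.0% of genes higher and 24.3% lower, and siAPC against the control gave 7913 (40.0%), with 21.3% higher and 18.7% lower. These comparisons share arrays with the main one, so only each comparison's own values are set side by side below. Bulk arrays cannot tell fewer cells of one kind from less RNA per cell.

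**Figure D1:**
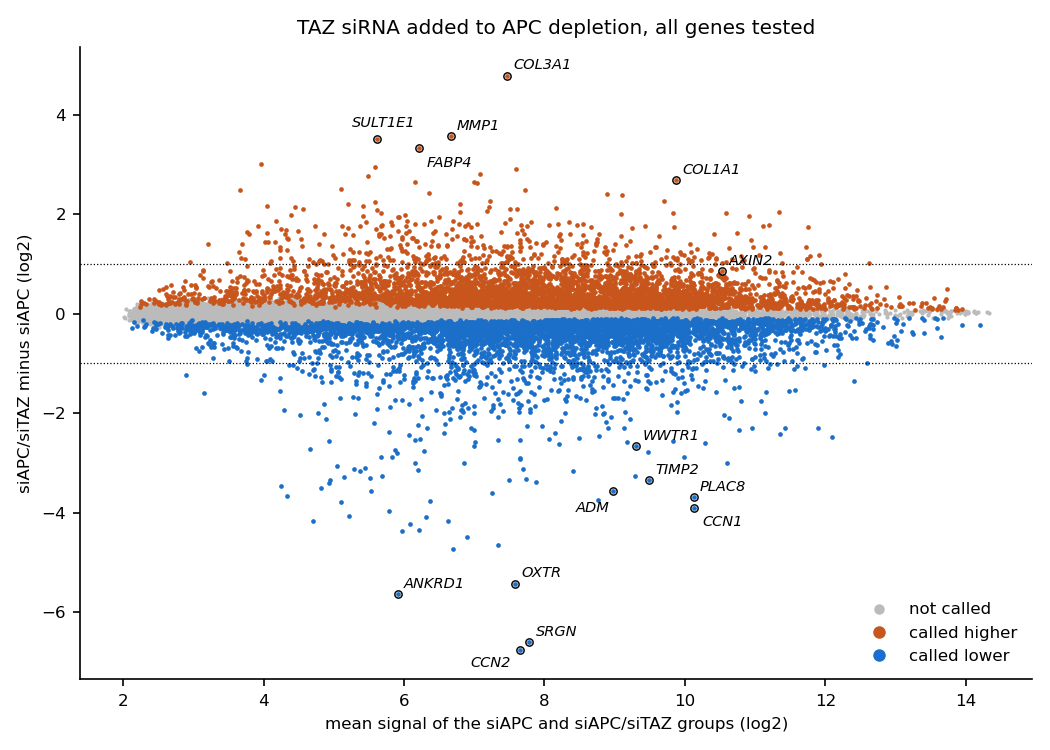
Each point is 1 of the 19775 genes, by its mean log2 signal in the siAPC and siAPC/siTAZ groups (x axis) and the log2 difference siAPC/siTAZ minus siAPC (y axis), with 4 arrays a group and dotted lines at 2-fold. CCN2, SRGN, ANKRD1 and OXTR lie lowest, with falls of more than 5 on the log2 scale, and COL3A1 lies highest at 4.78.

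Genes that TAZ and YAP1 activate through TEAD factors fell in most cases, 13 of 21 by at least 2-fold. Of 21 such targets measured, 19 fell, 0 rose and 2 (ARHGEF17 at -0.15 and PTPN14 at 0.04) were not called, against 22.8% of all genes called lower. The list's median difference was -1.28, against -0.03 over all genes, and -0.74 when every probe set of these genes was taken. CCN2, which encodes a secreted matricellular protein, fell furthest of all genes tested. CCN2 read 7.88, 7.79, 7.81 and 7.57 (log2 signal) in the 4 control arrays, 11.05, 10.99, 11.08 and 11.01 in the siAPC arrays and 3.77, 4.23, 4.38 and 4.70 in the siAPC/siTAZ arrays. The siAPC arrays stood above the control and the siAPC/siTAZ arrays far below it, with no overlap between any of the groups. The change was -6.76 ± 0.169 (log2, SE, adjusted p = 6.67e-17), or 109-fold, and it took CCN2 to -3.49 relative to the control. CCN2 was also high in sibcat cells, with a mean of 10.56, so its height over the control was not particular to APC depletion. ANKRD1, an ankyrin-repeat protein of muscle and stressed cells, went back to its control reading. Both readings lie below the lowest array median of 5.07, where equal readings cannot tell equal expression from none. ANKRD1 read 2.85, 3.25, 3.26 and 2.96 (log2 signal) in the 4 control arrays, 8.74, 8.80, 8.69 and 8.68 in the siAPC arrays and 2.80, 3.15, 3.20 and 3.20 in the siAPC/siTAZ arrays. The siAPC/siTAZ and control arrays overlapped and the siAPC arrays stood apart, with a change of -5.64 ± 0.101 (log2, SE, adjusted p = 5.59e-19). In sibcat cells the mean of ANKRD1 was 8.18, also far above the control. CCN1, a relative of CCN2, fell by 3.90 from 12.07 to 8.18, which is 0.53 below the control.

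The same held for regulators that feed back on the pathway. AMOTL2, which binds and restrains YAP1 and TAZ, fell by 2.87, and LATS2, a kinase that phosphorylates them, fell by 1.09. CRIM1, a transmembrane protein that binds BMPs, fell by 2.77, IGFBP3, which binds insulin-like growth factors, by 2.47, and F3, the tissue factor that starts coagulation, by 2.43. The receptor kinase AXL fell by 2.00 and TGFB2, a TGF-beta ligand, by 1.46. The smallest called falls on the list were those of GADD45A at -0.47 and DOCK5 at -0.36. Against the control, 11 of the 21 targets were lower and 6 higher in siAPC/siTAZ cells, while in siAPC cells 18 were higher and 1 lower.

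The promoters of CCN2 and ANKRD1 show what a TEAD target looks like at the sequence level and are given for that reason. They are the 250 bases before the annotated start from RefSeq, build GRCh38.p14, written 5′ to 3′ on the gene's strand, with each match to the TEAD core GGAATG or its reverse complement in capitals. CCN2 lies on the minus strand at chr6:131951373-131951622 and holds 3 matches, at -169, -104 and -95 from the start. ANKRD1 lies on the minus strand at chr10:90921088-90921337 and holds 2 matches, at -220 and -128.
CCN2: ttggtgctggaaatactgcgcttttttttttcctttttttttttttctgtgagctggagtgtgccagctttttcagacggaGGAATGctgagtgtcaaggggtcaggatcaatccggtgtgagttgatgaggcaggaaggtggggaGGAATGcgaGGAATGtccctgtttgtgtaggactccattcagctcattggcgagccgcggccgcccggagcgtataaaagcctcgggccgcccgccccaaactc
ANKRD1: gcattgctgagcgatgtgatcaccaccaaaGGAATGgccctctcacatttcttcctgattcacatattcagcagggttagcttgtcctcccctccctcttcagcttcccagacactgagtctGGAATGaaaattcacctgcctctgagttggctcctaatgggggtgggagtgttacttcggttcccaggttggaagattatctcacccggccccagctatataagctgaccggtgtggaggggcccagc
In the window from 250 bases before to 50 bases after the start, searched on both strands, 6 of the 15 TEAD targets with a promoter in the table held GGAATG, against 11.9% of the 15384 tested genes that have one. The share was 14.9% (54 of 362) among genes that fell at least 2-fold, 18.4% (14 of 76) among those that fell at least 4-fold and 8.42% (25 of 297) among those that rose at least 2-fold. The AP-1 motif TGANTCA, on both strands and able to overlap the TEAD motif, was present in 5.84% of all these promoters, in 7.18% of those that fell and in 10.8% of those that rose at least 2-fold. These are descriptions of letters near annotated starts. Where a symbol had several entries in the table, the first listed was used.

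Among the TEAD factors and their cofactors, 6 of 9 fell and 2 rose. VGLL3, a cofactor that competes for TEAD, fell by 1.49, from 10.08, 10.15, 10.36 and 10.16 in the siAPC arrays to 8.59, 8.72, 8.61 and 8.85 in the siAPC/siTAZ arrays, with no overlap. TEAD1 fell by 0.42, TEAD4 by 0.42, VGLL1 by 0.56 and VGLL2 by 0.50, and TEAD3 was not called (0.13). VGLL4, known as a repressor of TEAD output, rose by 0.76, and TEAD2 rose by 0.76 on the probe set used, although 1 of its 4 probe sets was called lower. YAP1 itself fell without being a stated siRNA target. YAP1 read 11.01, 10.99, 10.90 and 10.88 (log2 signal) in the 4 control arrays, 10.34, 10.36, 10.44 and 10.31 in the siAPC arrays and 9.71, 9.57, 9.63 and 9.56 in the siAPC/siTAZ arrays. The groups did not overlap, and the change from siAPC was -0.74 ± 0.0456 (log2, SE, adjusted p = 4.24e-11), with 2 of 3 YAP1 probe sets lower and 1 higher by 0.26. Of 22 Hippo pathway components, 7 fell and 7 rose, with a median of 0.06 (-0.10 over every probe set), beside 20.7% of all genes called higher and 22.8% lower. Those that fell were led by AJUBA, a LIM protein that inhibits LATS kinases (-1.75), the scaffold WWC1 (-1.06) and NF2, the upstream tumour suppressor merlin (-1.01). AMOTL1 (0.66) and the kinase MAP4K4 (0.62) led the rises.

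Beta-catenin/TCF targets, in contrast, mostly went up. Of 26 measured, 16 rose, 2 fell and 8 were not called, with a median of 0.54, against 20.7% of all genes called higher. The median was 0.30 over every probe set of these genes. Not all members stood above the control: in siAPC cells 13 of the 26 were higher and 5 lower, with a median of 0.40. In siAPC/siTAZ cells 13 were higher than the control and 3 lower, with a median of 0.16. AXIN2, the feedback inhibitor of the pathway, was far above the control in siAPC cells and rose further. AXIN2 read 4.90, 4.62, 4.86 and 4.79 (log2 signal) in the 4 control arrays, 10.08, 10.09, 10.08 and 10.14 in the siAPC arrays and 10.99, 10.87, 10.92 and 11.06 in the siAPC/siTAZ arrays. The siAPC/siTAZ arrays lay above all siAPC arrays, and the change was 0.86 ± 0.0772 (log2, SE, adjusted p = 1.26e-08). LEF1, one of the DNA-binding partners of beta-catenin, behaved alike. LEF1 read 6.44, 6.52, 6.51 and 6.53 (log2 signal) in the 4 control arrays, 9.46, 9.50, 9.41 and 9.49 in the siAPC arrays and 10.74, 10.67, 10.67 and 10.70 in the siAPC/siTAZ arrays. The 3 groups followed one another without overlap, with a change of 1.23 ± 0.049 (log2, SE, adjusted p = 6.31e-14). TNFRSF19, a TNF receptor family member, rose by 1.32 and LGR6, a receptor for R-spondins, by 0.95. SP5 and AXIN2 each rose by 0.86, MSX2 by 0.67, MYC by 0.64, NKD1 by 0.61 and SOX9 by 0.61. APCDD1, an inhibitor of Wnt reception, rose by 1.40 on the probe set used, but 1 of its probe sets changed by -0.00. LGR5 (0.05), NOTUM (-0.08) and ASCL2 (-0.25) were not called.

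The 2 list members that fell are DKK1, a secreted inhibitor of Wnt receptors, and CCND1, the G1 cyclin. DKK1 read 11.84, 11.93, 11.86 and 11.91 (log2 signal) in the 4 control arrays, 12.59, 12.58, 12.55 and 12.60 in the siAPC arrays and 10.33, 10.23, 10.33 and 10.23 in the siAPC/siTAZ arrays. DKK1 lay above the control in siAPC arrays and below it in siAPC/siTAZ arrays, a change of -2.30 ± 0.0392 (log2, SE, adjusted p = 2.73e-19). CCND1 fell by 0.90, from 11.09 to 10.19. ID2, an inhibitor of helix-loop-helix factors, had fallen in siAPC cells and rose after TAZ siRNA. ID2 read 9.12, 9.38, 9.15 and 9.09 (log2 signal) in the 4 control arrays, 8.39, 8.37, 8.31 and 8.50 in the siAPC arrays and 10.16, 10.08, 10.14 and 10.07 in the siAPC/siTAZ arrays. All siAPC/siTAZ arrays lay above both other groups, with a change of 1.72 ± 0.058 (log2, SE, adjusted p = 5.38e-15). In sibcat cells ID2 was also below the control, with a mean of 8.115, and TAZ siRNA raised it by 1.11 there. Of 22 Wnt receptors and destruction complex members, 7 rose and 7 fell, with a median of -0.02. Over all genes, 20.7% were called higher and 22.8% lower. The receptors FZD7 (0.72) and FZD1 (0.66) and the factor TCF7L2 (0.60) rose, and the receptors FZD2 (-1.06) and FZD5 (-0.66) fell.

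**Figure D2:**
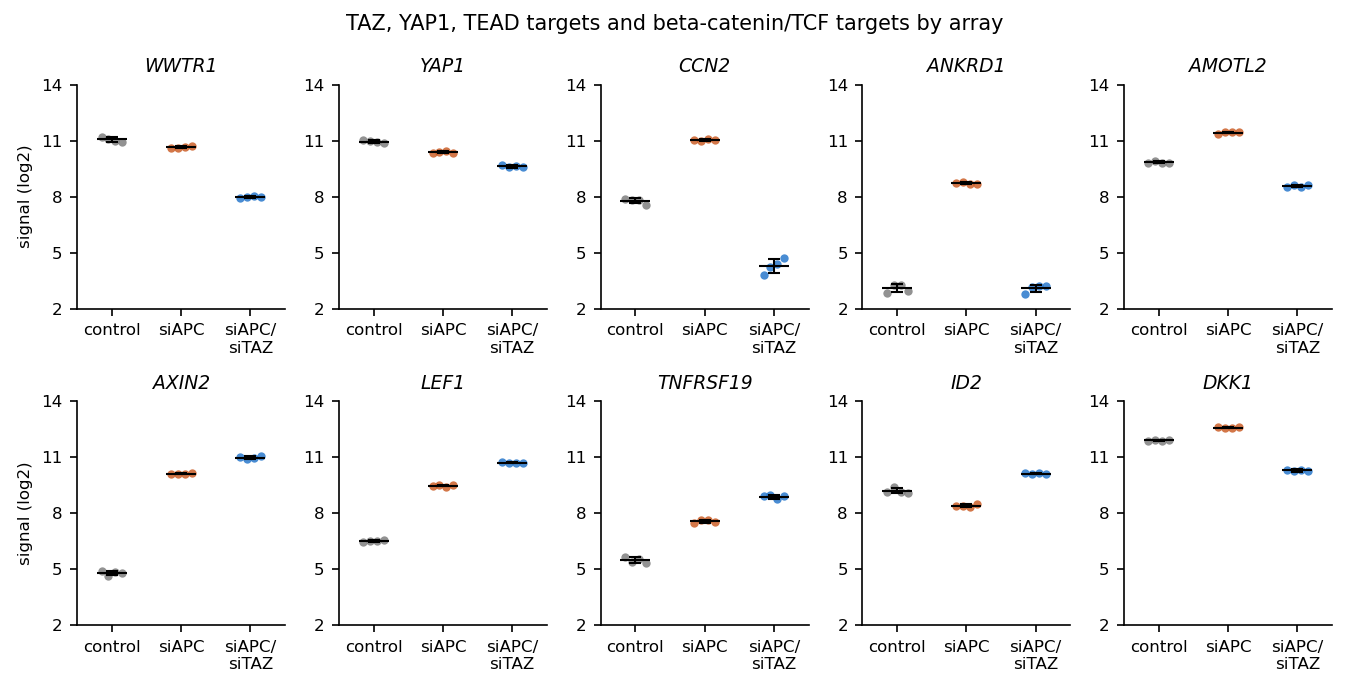
Log2 signal of 10 genes in each array (points), with the mean and SD (bars) of the 4 arrays of the control, siAPC and siAPC/siTAZ groups. WWTR1, CCN2, ANKRD1 and AMOTL2 are lowest or back at control level in siAPC/siTAZ, whereas AXIN2, LEF1 and TNFRSF19 are highest there, and DKK1 falls below the control.

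The 20 largest falls were genes that stood high in siAPC cells: all 20 were called above the control there, against 21.3% of all genes. The siAPC and siAPC/siTAZ arrays enter both the choice of these genes and the control comparisons, so these positions are partly built in. After TAZ siRNA, 11 of the 20 were called below the control, 7 were not called against it and 2 (ADAMTS1 and ABCA8) were still above it. The pattern was not particular to APC depletion: each of the 20 also had a higher mean in sibcat cells than in the control. TAZ siRNA lowered all 20 in sibcat cells too, against 13.7% of all genes, and the effect differed between backgrounds for 13. In siAPC cells the 20 differences lay between -6.76 and -3.69, with SEs from 0.04 to 0.169. There 17 of the 20 genes ended below the lowest array median of 5.07, where a difference understates a change. SRGN, the core protein of secretory granule proteoglycan, was second. SRGN read 6.76, 6.79, 6.92 and 6.79 (log2 signal) in the 4 control arrays, 11.09, 11.09, 11.10 and 11.05 in the siAPC arrays and 4.26, 4.42, 4.58 and 4.69 in the siAPC/siTAZ arrays. The groups were well apart, and the change was -6.59 ± 0.0833 (log2, SE, adjusted p = 3.65e-21), or 96.7-fold. OXTR, the oxytocin receptor of myoepithelial cells, fell by 5.42 from 10.29 to 4.87, which is 0.72 below the control. PLAC8, a small cysteine-rich protein, kept a measurable signal at the end. PLAC8 read 10.58, 10.59, 10.59 and 10.68 (log2 signal) in the 4 control arrays, 11.98, 12, 11.91 and 11.98 in the siAPC arrays and 8.26, 8.29, 8.35 and 8.21 in the siAPC/siTAZ arrays. Its siAPC/siTAZ arrays lay below all control arrays, after a change of -3.69 ± 0.04 (log2, SE, adjusted p = 5.78e-22).

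The rest of the 20 were surface, signalling and metabolic genes. ITGB2, the beta chain of the leukocyte integrins, fell by 4.34, the oxidase AOX1 by 4.66, CCBE1, a secreted factor of lymphatic growth, by 4.49, and the Wnt modulators LYPD6 and LYPD6B by 4.37 and 4.16. The bicarbonate transporter SLC4A4 fell by 4.16, and the G-protein regulator RGS7 by 4.06. The protease ADAMTS1 changed by -3.73. PRR16 (-4.72), ZNF385B (-4.09), ABCA8 (-3.96), LINC01085 (-3.78), PSG9 (-4.23) and PSG4 (-3.77) complete the group. Probe sets of the PSG genes may read several members of that family, so their values are uncertain. Only 1 of the 5 SLC4A4 probe sets and 1 of the 3 ABCA8 probe sets were called lower. Among those not called, 1 of SLC4A4 changed by -0.07 (adjusted p = 0.557) and 1 of ABCA8 by -0.15 (adjusted p = 0.272).

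The 20 largest rises mirrored this: 17 had been called below the control in siAPC cells, 1 above it, and 17 ended above the control. Over all genes, 18.7% were called below the control in siAPC cells and 23.0% above it in siAPC/siTAZ cells. The choice of the rises shares arrays with these comparisons too, so their positions are also partly built in. COL3A1, a fibrillar collagen, rose furthest. COL3A1 read 5.40, 5.24, 5.40 and 5.74 (log2 signal) in the 4 control arrays, 5.21, 4.95, 4.81 and 5.34 in the siAPC arrays and 9.92, 9.86, 9.83 and 9.82 in the siAPC/siTAZ arrays. Control and siAPC arrays overlapped near the array medians and the siAPC/siTAZ arrays stood far above, with a change of 4.78 ± 0.128 (log2, SE, adjusted p = 1.86e-16), or 27.5-fold. MMP1, a collagenase, rose from 4.88 to 8.44 (3.56), SULT1E1, an oestrogen sulfotransferase, by 3.51, and FABP4, a fatty acid binding protein, by 3.33. The alarmin IL33 rose by 3.01, the Wnt receptor FZD10 by 2.96 and the death ligand TNFSF10 by 2.81. TNFSF10 ended at its control level (0.03 against the control, not called). CLDN8, a tight junction claudin, rose by 2.5 and remained 2.52 below the control. DKK2, a Wnt modulator, rose by 2.91 on the probe set used, but its other probe set was called lower (-0.37). MAML3 rose by 2.42, but only 1 of its 3 probe sets was called higher, and another, at -0.03, was not called. NR4A2 (2.64), HEY1 (2.48), VAV3 (2.40), MGP (2.27), PTPRZ1 (2.64), PDE7B (2.65), TCIM (2.49), ARL14 (2.76), COL1A1 (2.68) and SPARC (2.38) were the others. Of all 20, 16 were also called higher after TAZ siRNA in sibcat cells, against 18.0% of all genes. The effect differed between backgrounds for 19.

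Genes of the extracellular matrix mostly rose. Of 21 measured, 15 rose and 5 fell, with a median of 0.42, against 20.7% of all genes called higher. Besides COL3A1, the rises were led by COL1A1, the other main fibrillar collagen. COL1A1 read 9.46, 9.72, 9.40 and 9.64 (log2 signal) in the 4 control arrays, 8.57, 8.53, 8.53 and 8.52 in the siAPC arrays and 11.25, 11.22, 11.13 and 11.26 in the siAPC/siTAZ arrays. It had fallen in siAPC cells and ended above the control with no overlap, a change of 2.68 ± 0.0615 (log2, SE, adjusted p = 1.95e-17), although 1 of its 5 probe sets was called lower. The collagen-binding protein SPARC rose by 2.38, POSTN (periostin) by 1.76, the hyaluronan synthase HAS2 by 1.30 and TNC (tenascin C) by 0.71. The 5 that fell were COL8A1 (-3.0), THBS1 (-2.30), the lysyl oxidases LOXL2 (-1.76) and LOX (-0.87), and EDIL3 (-1.53). COL8A1 fell from 12.10 to 9.10 and stayed 0.43 above the control.

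Part of the fibroblast marker list moved with these genes. Its median difference was 0.21, and the rises of COL3A1 (4.78) and COL1A1 (2.68) were its largest. The mean signal over the 9 measured lay between 6.18 and 6.26 in the siAPC arrays and between 7.25 and 7.32 in the siAPC/siTAZ arrays. Of the 9, 5 rose (COL3A1, COL1A1, DPT, DCN and FAP), PDGFRB fell (-0.43) and 3 were not called, against 20.7% of all genes called higher. Without genes of mean signal under 5 the median of this list was 1.21. COL1A1 and COL3A1 belong to both lists. LUM (2.82 in siAPC and 2.81 in siAPC/siTAZ) and PDGFRA (3.85 and 3.90) were among the lowest 25% of genes in both groups, and DCN was at 12.32 in the control.

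Targets of TGF-beta and BMP signalling rose in the larger part. This list and the other lists in this paragraph are read against 20.7% of all genes called higher and 22.8% lower. Of 16, 11 rose and 2 fell, with a median of 0.39 (0.16 over every probe set). ID1 and ID3, which block helix-loop-helix factors and respond to BMP, rose by 1.78 and 2.02. ID3 read 8.98, 8.97, 9.11 and 9.17 (log2 signal) in the 4 control arrays, 8.80, 8.87, 8.75 and 8.88 in the siAPC arrays and 10.89, 10.83, 10.88 and 10.80 in the siAPC/siTAZ arrays. The siAPC/siTAZ arrays of ID3 lay above all arrays of both other groups. The inhibitory SMAD6 and SMAD7 rose by 1.03 and 0.95, and TAGLN, a smooth muscle actin-binding protein, rose by 1.78. THBS1 and BHLHE40 (-0.61) fell. Of 17 genes for the actin cytoskeleton and SRF targets, 8 fell and 3 rose, with a median of -0.14: LIMA1 (-0.79), TPM1 (-0.73) and vinculin, VCL (-0.58), fell, and TAGLN and ACTA2 (1.56) rose. For ACTA2 only 1 of 3 probe sets was called higher, and another changed by -0.03 and was not called. Of 16 integrins and laminins, 10 rose, led by ITGA1 (0.97) and ITGA2 (0.87), and 3 fell.

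Epithelial genes did not move as one, and their counts are read against 20.7% of all genes called higher and 22.8% lower. Of 15 identity genes, 6 rose and 6 fell, with a median of -0.03: the factors EHF (0.79) and ESRP1 (0.59) rose, and the protease PRSS8 (-0.69) and EPCAM (-0.62) fell. Against the control, all 15 were lower in siAPC/siTAZ cells, as were 14 of 15 in siAPC cells. Keratins of simple epithelium fell together, KRT7 by 1.53, KRT8 by 1.47 and KRT18 by 1.35, while KRT5, of the basal layer, rose by 0.80 and KRT14 fell by 0.54. Of 18 luminal and secretory markers, 4 fell and 2 rose, with 12 not called, which is near or below the share over all genes. Of 10 basal and myoepithelial markers, 6 fell and 3 rose. The tight junction genes OCLN (-1.89) and CGN (-1.16) fell, and the desmosomal cadherins DSC3 (1.18) and DSG3 (0.82) rose, so that the junction list gave 7 falls and 5 rises of 17. Among 15 squamous differentiation genes, 3 fell and 5 rose, with KRT4 at -1.60 and TGM1, a crosslinking enzyme of the cornified envelope, at -1.08. Of 19 mesenchymal genes, 11 rose and 5 fell: TWIST2 (0.90), TWIST1 (0.61) and SNAI2 (0.61) rose, and AXL, ZEB1 (-0.29) and VIM (-0.13) fell. SNAI1 was not called (-0.12).

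**Figure D3:**
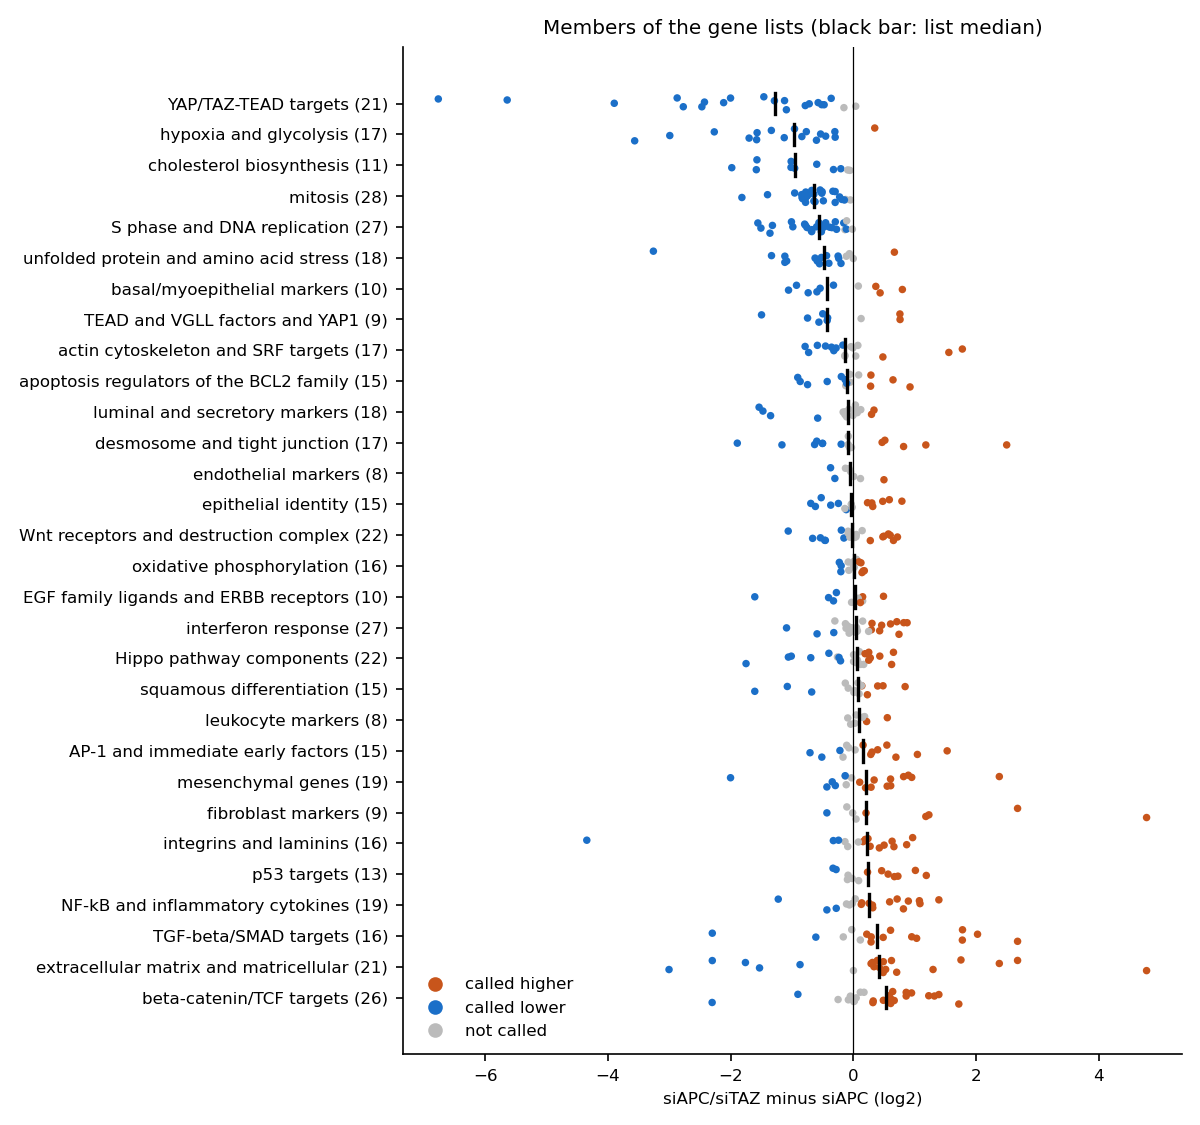
Log2 difference siAPC/siTAZ minus siAPC (x axis) of every measured member of the 30 gene lists, with the number measured in brackets, points coloured by call and a black bar at each list's median. TEAD targets (median -1.28), hypoxia and glycolysis (-0.96) and cholesterol biosynthesis (-0.95) lie furthest to the left, and beta-catenin/TCF targets (0.54) furthest to the right.

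Hypoxia and glycolysis genes fell nearly throughout. Of 17 measured, 16 fell and only KDM3A rose (0.35), with a median of -0.96 (-0.56 over every probe set), against 22.8% of all genes called lower. ADM, adrenomedullin, a vasodilator peptide induced by HIF, led them. ADM read 9.44, 9.41, 9.50 and 9.45 (log2 signal) in the 4 control arrays, 10.74, 10.75, 10.73 and 10.81 in the siAPC arrays and 7.22, 7.25, 7.19 and 7.12 in the siAPC/siTAZ arrays. ADM stood above the control in siAPC arrays and below it in siAPC/siTAZ arrays without overlap, a change of -3.56 ± 0.0387 (log2, SE, adjusted p = 5.78e-22), or 11.8-fold. EGLN3, an oxygen-sensing prolyl hydroxylase, was already lower than the control in siAPC cells. EGLN3 read 8.91, 9.08, 9.01 and 9.12 (log2 signal) in the 4 control arrays, 8.41, 8.38, 8.28 and 8.34 in the siAPC arrays and 5.63, 5.52, 5.11 and 5.19 in the siAPC/siTAZ arrays. All siAPC/siTAZ arrays lay far below both other groups, and the further change was -2.99 ± 0.0899 (log2, SE, adjusted p = 9.85e-16). ANKRD37 fell by 2.27 and the mitophagy receptor BNIP3 by 1.57. Of the glycolytic enzymes and transporters, HK2 fell by 1.70, PFKFB4 by 1.33, SLC2A1 by 0.76, ENO1 by 0.53, PGK1 by 0.45, ALDOA by 0.30 and LDHA by 0.29. NDRG1 (-1.57), VEGFA (-1.12), P4HA1 (-0.96) and PDK1 (-0.84) fell as well. Against the control, all 17 were lower in siAPC/siTAZ cells. The 16 oxidative phosphorylation genes moved little, with 5 higher, 3 lower, a median of 0.02 and a range from -0.23 to 0.18.

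The promoters of ANKRD37 and BNIP3 are shown because both hold the hypoxia response core ACGTG as part of the palindrome CACGTG. They are the 250 bases before the start in GRCh38.p14, RefSeq, 5′ to 3′ on the gene's strand, with matches on either strand in capitals. ANKRD37 is on the plus strand at chr4:185396591-185396840, with 3 matches starting at -162, -161 and -143, the first 2 of which overlap on opposite strands. BNIP3 is on the minus strand at chr10:131981924-131982173, with 2 matches at -134 and -133 that overlap in the same way.
ANKRD37: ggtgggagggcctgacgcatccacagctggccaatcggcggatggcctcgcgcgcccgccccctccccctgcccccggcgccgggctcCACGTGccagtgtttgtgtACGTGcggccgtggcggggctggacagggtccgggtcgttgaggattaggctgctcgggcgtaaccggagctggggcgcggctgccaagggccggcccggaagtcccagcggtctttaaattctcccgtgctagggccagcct
BNIP3: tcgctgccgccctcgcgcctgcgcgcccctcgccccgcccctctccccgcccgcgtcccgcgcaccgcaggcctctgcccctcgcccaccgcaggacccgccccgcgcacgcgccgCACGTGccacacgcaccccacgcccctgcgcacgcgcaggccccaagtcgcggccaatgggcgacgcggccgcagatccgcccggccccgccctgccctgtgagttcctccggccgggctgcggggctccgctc
ACGTG on either strand was in 7 of 15 promoters of this list, against 24.1% of all, and in 24.9% of genes that fell at least 2-fold. This motif and the next were chosen after the values were seen.

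Stress and amino acid genes that had gone up in siAPC cells came down. Of 18 genes of the unfolded protein and amino acid responses, 14 fell and 1 rose (SESN2, 0.67), with a median of -0.48, while in siAPC cells 15 were higher than the control and 0 lower. The median was -0.32 over every probe set. Over all genes, 22.8% were called lower here, and in siAPC cells 21.3% were called higher than the control. ASNS, asparagine synthetase, led the falls. ASNS read 8.48, 8.58, 8.58 and 8.70 (log2 signal) in the 4 control arrays, 10.92, 10.91, 10.95 and 10.87 in the siAPC arrays and 7.56, 7.71, 7.66 and 7.69 in the siAPC/siTAZ arrays. Its siAPC/siTAZ arrays lay below the control as well, after a change of -3.26 ± 0.0501 (log2, SE, adjusted p = 8.58e-20). PHGDH, the first enzyme of serine synthesis, fell by 1.33, the factors DDIT3 and XBP1 by 1.12 and 1.12, TRIB3 by 1.08, ATF4 by 0.62 and CHAC1 by 0.59. SLC7A5 (0.00) and ATF5 (-0.06) were not called. ASNS and CHAC1 are shown for the composite C/EBP-ATF element TGATGNAA that ATF4 is known to bind. They cover the same stretch and use the same writing, with the match in capitals. ASNS is on the minus strand at chr7:97872409-97872658, with 1 match at -68. CHAC1 is on the plus strand at chr15:40953221-40953470, with 1 match at -209 on the opposite strand.
ASNS: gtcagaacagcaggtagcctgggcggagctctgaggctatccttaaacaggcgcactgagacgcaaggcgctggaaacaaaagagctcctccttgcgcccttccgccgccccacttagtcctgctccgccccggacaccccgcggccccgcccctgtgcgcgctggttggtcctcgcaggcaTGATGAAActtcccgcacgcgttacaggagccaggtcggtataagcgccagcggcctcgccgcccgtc
CHAC1: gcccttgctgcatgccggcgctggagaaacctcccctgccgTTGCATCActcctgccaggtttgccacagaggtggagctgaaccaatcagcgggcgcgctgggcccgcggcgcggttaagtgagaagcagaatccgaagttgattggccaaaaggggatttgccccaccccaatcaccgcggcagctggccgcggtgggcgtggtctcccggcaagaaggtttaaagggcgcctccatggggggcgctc
TGATGNAA on either strand was in 4 of 17 promoters of the list, against 2.62% of all and 3.59% of genes that fell at least 2-fold.

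Cholesterol synthesis went down as well. Of 11 genes measured, 9 fell and 0 rose, against 22.8% of all genes called lower. The median was -0.95 (-0.59 with the mean over each gene's probe sets). INSIG1, the sterol-responsive retention factor of SCAP, led them. INSIG1 read 10.43, 10.32, 10.20 and 10.12 (log2 signal) in the 4 control arrays, 10.87, 10.84, 10.96 and 10.86 in the siAPC arrays and 8.92, 8.88, 8.89 and 8.92 in the siAPC/siTAZ arrays. The siAPC/siTAZ arrays lay below both other groups, a change of -1.98 ± 0.0662 (log2, SE, adjusted p = 4.72e-15). HMGCS1 fell by 1.58, SQLE by 1.57, FDPS by 1.01, IDI1 by 1.01, DHCR7 by 0.95 and MVD by 0.59. For IDI1, 1 of 4 probe sets was called higher. SREBF2 (-0.09) and SC5D (-0.06) were not called.

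Genes of the cell cycle fell without exception among those called. Of 28 mitosis genes, 26 fell and 0 rose, with a median of -0.63. Of 27 genes of S phase and DNA replication, 24 fell and 0 rose, with a median of -0.56. Both counts stand against 22.8% of all genes called lower. NUF2, a kinetochore protein, overlapped between control and siAPC arrays. NUF2 read 8.39, 8.25, 8.17 and 8.15 (log2 signal) in the 4 control arrays, 8.29, 8.26, 8.34 and 8.20 in the siAPC arrays and 6.33, 6.46, 6.54 and 6.50 in the siAPC/siTAZ arrays. Only the siAPC/siTAZ arrays stood apart, with a change of -1.81 ± 0.0619 (log2, SE, adjusted p = 6.35e-15). CDC20, an activator of the anaphase-promoting complex, fell by 1.40, CCNB1 by 0.95, AURKA by 0.84, CDK1 by 0.83 and MKI67 by 0.78. TOP2A fell by only 0.15, and PTTG1 (-0.05) and INCENP (-0.12) were not called.

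The replication genes ranged from large falls to members that were not called. MCM6 read 10.20, 10.23, 10.25 and 10.28 (log2 signal) in the 4 control arrays, 9.48, 9.49, 9.36 and 9.36 in the siAPC arrays and 7.89, 7.88, 7.94 and 7.96 in the siAPC/siTAZ arrays. MCM6, a subunit of the replicative helicase, stepped down in both groups, and the change from siAPC was -1.50 ± 0.0432 (log2, SE, adjusted p = 5.08e-16). The cyclin CCNE2 fell by 1.55, GINS2 by 1.36, UHRF1, which maintains DNA methylation, by 1.32 and CDC6 by 1.01. For GINS2 another probe set changed by -0.09 and was not called. Other subunits of the same helicase changed less, MCM5 by -0.78, MCM2 by -0.67, MCM4 by -0.27 and MCM7 by -0.11, and MCM3 (-0.11) and PCNA (-0.02) were not called.

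**Figure D4:**
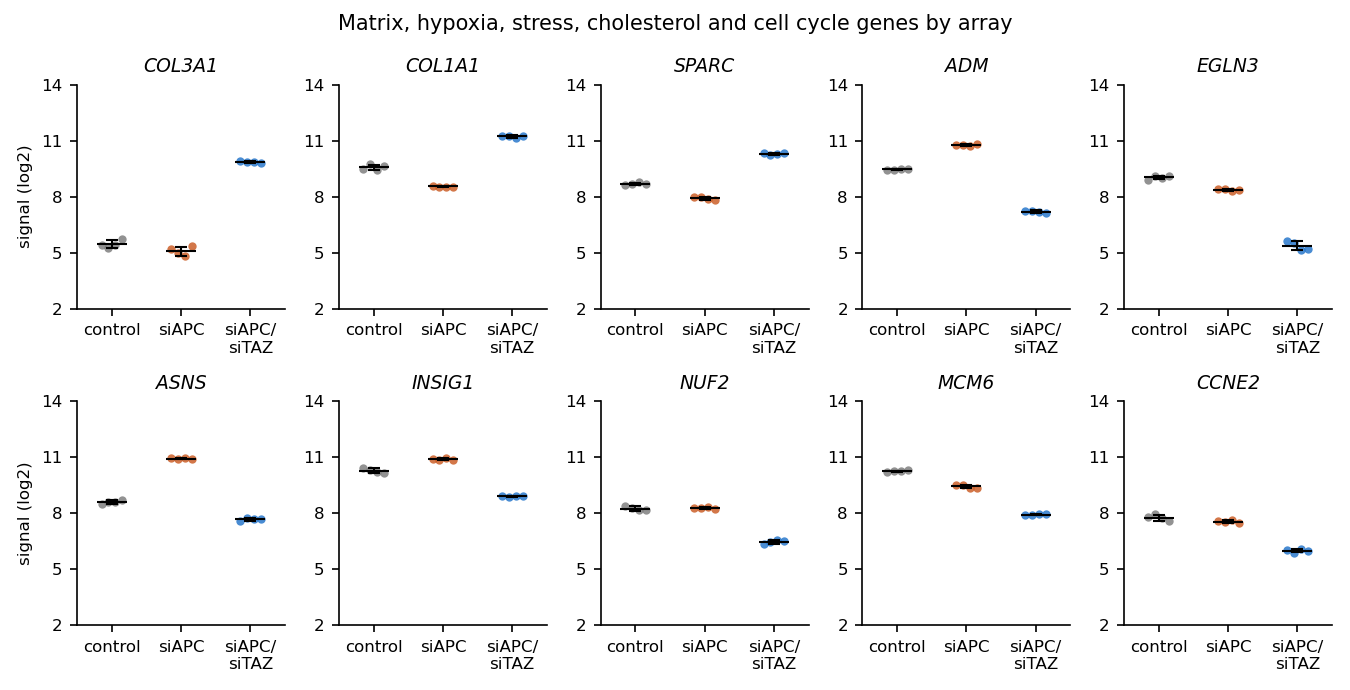
Log2 signal of 10 genes in each array (points), with the mean and SD (bars) of 4 arrays per group. COL3A1, COL1A1 and SPARC are highest in siAPC/siTAZ, and ADM, EGLN3, ASNS, INSIG1, NUF2, MCM6 and CCNE2 are lowest there, without overlap with the siAPC arrays.

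Survival and inflammatory genes gave mixed counts, again beside 20.7% of all genes higher and 22.8% lower. Of 13 p53 targets, 7 rose and 2 fell, with a median of 0.23: SESN1 rose by 1.19, the death receptor FAS by 1.01, TP53INP1 by 0.73 and MDM2 by 0.57, while CDKN1A was not called (-0.10). Of 15 BCL2 family genes, 4 rose and 7 fell. BCL2L11, which encodes the cell death activator BIM, rose by 0.92, and BCL2L1, which encodes the survival protein BCL-XL, fell by 0.74. Of 19 genes of NF-kB and inflammatory cytokines, 12 rose and 3 fell, with a median of 0.26. The chemokine CXCL2 rose by 1.40, the NF-kB inhibitor TNFAIP3 by 1.09, IL6 by 1.08 and IL1B by 0.90, and the chemokine CCL20 fell by 1.22. Of 15 AP-1 and immediate early factors, 8 rose and 3 fell, with a median of 0.16 (-0.01 over every probe set): FOS rose by 1.53 and EGR3 by 1.04, and FOSL1 fell by 0.71 and JUN by 0.51. Of 10 EGF family ligands and receptors, 3 rose and 4 fell, with NRG1, a ligand of ERBB3, at -1.60.

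The series also holds the same addition of TAZ siRNA in beta-catenin-depleted cells, on 8 other arrays. WWTR1 fell by 2.21 there and by 2.67 in APC-depleted cells, a difference of -0.45 ± 0.0764 (log2, SE, adjusted p = 0.000118). CTNNB1 fell by 1.41 there on the probe set used, so these 2 additions also differ in CTNNB1. Its other probe sets were called there in opposite directions, at -0.48 and 0.21. In sibcat cells 6264 genes were called (31.7%), 18.0% of all genes higher and 13.7% lower. The difference between the 2 effects was called for 5480 genes (27.7%), positive for 12.2% and negative for 15.5%. The same direction was called in both for 4086 genes, which is 47.5% of the calls in APC-depleted cells and 65.2% of those in beta-catenin-depleted cells, and the opposite direction for 697. Of the 864 genes with at least 2-fold change, 737 were called the same way in sibcat cells, 21 the opposite way and 106 not at all. TEAD targets fell in both, 19 of 21 in each, with medians of -1.28 and -1.46. The effect was called larger or smaller in 14 of them, 7 in each direction. Hypoxia genes also fell in both, 16 of 17 in each, with medians of -0.96 in siAPC and -0.63 in sibcat cells. The difference was called negative for 10 of the 17 and positive for 1, against 15.5% and 12.2% of all genes.

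Cell cycle and interferon genes did not share such a common direction. In sibcat cells TAZ siRNA raised 22 of 28 mitosis genes and lowered 0, with a median of 0.25, against 18.0% of all genes raised there. The difference between backgrounds was called negative for 27 of the 28, against 15.5% of all genes. Of the 27 replication genes, 9 rose and 4 fell in sibcat cells, and 24 had a negative difference. Of 27 interferon response genes, 24 rose in sibcat cells with a median of 0.85, whereas 9 rose and 3 fell in siAPC cells with a median of 0.05, and the difference was called negative for 24 and positive for 1 (IRF1, 0.61). IFIT2 fell by 1.09 in siAPC cells and rose by 0.56 in sibcat cells. For beta-catenin/TCF targets, 14 of 26 had a positive difference and 0 a negative one. In sibcat cells 9 of the 26 rose and 4 fell, with a median of 0.13, against 18.0% and 13.7% of all genes. Those that rose there included ID2 (1.11), TNFRSF19 (0.855) and AXIN2 (0.33). LEF1, which rose by 1.23 in siAPC cells, fell by 0.20 in sibcat cells.

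**Figure D5:**
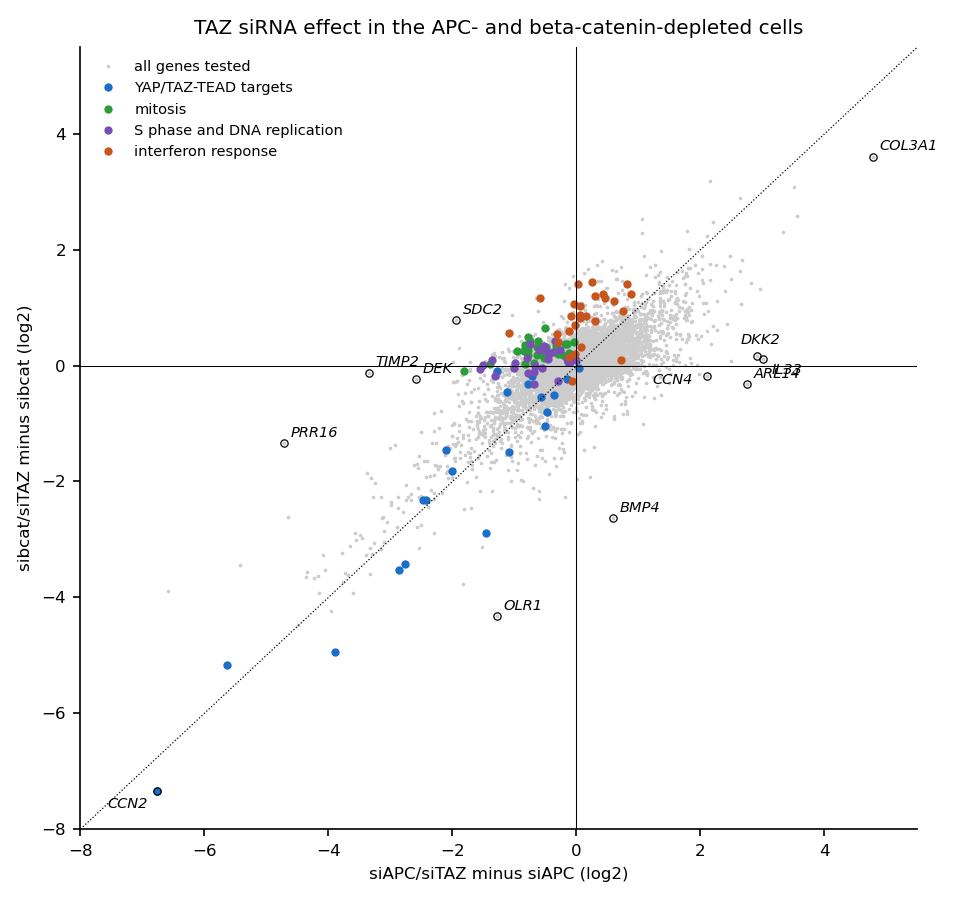
Each point is a gene, by the log2 difference that TAZ siRNA made in APC-depleted cells (x axis) and in beta-catenin-depleted cells (y axis), each from 4 against 4 arrays, with the line of equality dotted and 4 gene lists coloured. TEAD targets lie low on both axes, mitosis and replication genes lie left of 0 and mostly at or above 0, interferon genes lie above 0, and TIMP2, DEK, SDC2, BMP4 and OLR1 lie away from the line.

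Single genes stood out in the same comparison. TIMP2, an inhibitor of metalloproteinases, is the clearest. TIMP2 read 11.14, 11.15, 11.12 and 11.23 (log2 signal) in the siAPC arrays and 7.76, 7.83, 7.78 and 7.88 in the siAPC/siTAZ arrays. It read 11.37, 11.33, 11.39 and 11.46 in the sibcat arrays and 11.30, 11.27, 11.20 and 11.30 in the sibcat/siTAZ arrays, so that only the siAPC/siTAZ arrays were low. The change was -3.35 in siAPC cells and -0.12 in sibcat cells, a difference of -3.23 ± 0.0564 (log2, SE, adjusted p = 6.98e-18). DEK, a chromatin protein, did likewise. DEK read 11.53, 11.55, 11.67 and 11.56 (log2 signal) in the siAPC arrays and 8.93, 9.01, 9.03 and 8.98 in the siAPC/siTAZ arrays. It read 11.97, 11.99, 11.77 and 11.85 in the sibcat arrays and 11.59, 11.74, 11.66 and 11.68 in the sibcat/siTAZ arrays, a difference of -2.36 ± 0.0709 (log2, SE, adjusted p = 4.49e-14). The cochaperone SGTB (-1.99 and 0.07, the latter not called), the syndecan SDC2 (-1.94 and 0.79) and OIP5, which loads centromeric CENP-A (-1.89 and 0.30), were also low in the siAPC/siTAZ arrays. PRR16 (-4.72 and -1.33), SRGN (-6.59 and -3.89) and AOX1 (-4.66 and -2.60) fell in both and further in siAPC cells.

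The largest positive differences came from genes that TAZ siRNA lowered in sibcat cells or raised in siAPC cells alone. BMP4, a BMP ligand, is of the first kind. BMP4 read 10.29, 10.30, 10.30 and 10.25 (log2 signal) in the siAPC arrays and 11.02, 10.84, 10.82 and 10.83 in the siAPC/siTAZ arrays. It read 8.09, 7.91, 8.11 and 8.03 in the sibcat arrays and 5.52, 5.44, 5.29 and 5.34 in the sibcat/siTAZ arrays, so that it rose by 0.59 where APC was depleted and fell by 2.64 where beta-catenin was depleted, a difference of 3.23 ± 0.105 (log2, SE, adjusted p = 9.59e-14). OLR1, a scavenger receptor, fell by 1.28 against 4.33, and ZBED2, a zinc finger protein, rose by 0.21 and fell by 1.92. Of the second kind were CCN4, a matricellular relative of CCN2 known as a Wnt-induced gene (2.10 and -0.18, the latter not called), IL33 (3.01 and 0.11, not called), DKK2 (2.91 and 0.16, not called), TCIM (2.49 and 0.08, not called) and ARL14, a small GTPase (2.76 and -0.32, a fall). For DKK2 the difference on the other probe set was -0.03 and not called.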

How the data were processed

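Each of the 20 samples has its own Affymetrix HG-U133 Plus 2.0 array. What the authors deposited are log2 signals, made by RMA per the submitters' processing notes (the sources used here name no version), and the log2 scale was read from their range, 1.71 to 14.35. Of 54675 probe sets, 41097 carried 1 gene symbol, 1801 several and 11777 none in the platform annotation. For each gene the probe set of highest mean signal across the 20 arrays was taken (10523 genes had several), which gave 19775 genes with no filter on low signal.

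All 20 arrays entered 1 linear model with a mean per group, in limma 3.58.1 and R 4.3.3 (15 residual degrees of freedom, two-sided, Benjamini-Hochberg over all genes). The median residual SD was 0.108, the smallest called difference 0.08, and the number of arrays limits the precision. The fit was tested on simulated data. Genes were named by rule: siRNA targets, 4 reporters, the 20 largest rises and 20 largest falls without overlap, up to 5 members per list, the 8 largest differences between backgrounds in each direction, and all YAP1, TEAD and VGLL genes. Further list members were named after their values were seen. The members and lists, 30 lists with 505 of 547 entries measured, were chosen with earlier results of these data known, and lists are described by counts and medians without a set test. Promoters came from RefSeq (GRCh38.p14) for 15384 of 19775 genes. Outlying arrays were looked for with Dixon's test. Replicate letters were not treated as pairs in the main fit. Residual correlations of same-letter siAPC and siAPC/siTAZ arrays were low (0.016, 0.0095, 0.10 and 0.0037). In 4 of 8 cases an array's best match in the other group carried its own letter, so a weak shared factor by letter cannot be told from none. Alternatives covered the probe set rule, filters at a mean of 5 and 7, array scaling, the samples fitted, the replicate block, the moderation and each array left out.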

Additional observations from a re-analysis of the deposited data

Results flagged for a closer look

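In 13 of 166 groups of 4 arrays examined, 1 array stood apart from the other 3 by Dixon's test at 95%; chance alone gives about 1 in 20. The gap as a share of the group's range was 0.875 for ANKRD1 in siAPC/siTAZ (array A, 2.80 against 3.15 to 3.20), 0.833 for AXIN2 in siAPC (array D, 10.14), 0.833 for ITGB2 in siAPC (array D, 8.35), 0.842 for ITGB2 in siAPC/siTAZ (array A, 4.31), 0.897 for SLC4A4 in siAPC (array C, 6.99) and 0.963 for LYPD6B in siAPC/siTAZ (array D, 4.34). It was 1 for ADAMTS1 in siAPC (array B, 10.61 against 10.63 in the others), 0.90 for BMP4 (array A, 11.02), 0.882 for OIP5 (array C, 6.08) and 0.875 for SGTB (array A, 5.65), all 3 in siAPC/siTAZ. List medians stood apart for AP-1 factors in siAPC/siTAZ (0.846, array C), stress genes in siAPC (0.889, array C) and oxidative phosphorylation in siAPC/siTAZ (0.929, array C). In none of these genes did the outlying array bring the siAPC and siAPC/siTAZ groups into overlap.

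The effect of TAZ siRNA differed between APC-depleted and beta-catenin-depleted cells, in the test of the difference (limma), for 141 of the 188 named genes. Given here are 22 of them, the siRNA targets and reporters that differed and the 8 largest differences in each direction. On the log2 scale, as siAPC background minus sibcat background, the differences were positive for CTNNB1 (1.69), CCN1 (1.04), AXIN2 (0.53), IL33 (2.90), DKK2 (2.75), ARL14 (3.08), TCIM (2.41), BMP4 (3.23), OLR1 (3.04), CCN4 (2.28) and ZBED2 (2.14). They were negative for WWTR1 (-0.45), APC (-0.67), ANKRD1 (-0.48), SRGN (-2.71), PRR16 (-3.38), AOX1 (-2.05), TIMP2 (-3.23), SDC2 (-2.73), DEK (-2.36), OIP5 (-2.19) and SGTB (-2.06). CTNNB1 is the siRNA target in one of the backgrounds and APC in the other.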

How the results depend on the processing

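Precision is limited by 4 arrays a group, and differences at low signal understate changes. With every probe set tested on its own (41091 tests), 16062 were called, 1531 with at least 2-fold change, and 9183 for the difference between backgrounds. Leaving out genes with a mean under 7 gave 483 genes with at least 2-fold change; fewer genes were tested. Leaving out 1 array gave 8130 to 8442 calls, 859 to 874 with at least 2-fold change and 5110 to 5348 for the difference between backgrounds. The fit with the replicate block gave 8680 calls against 8607, and it changed no call of a named gene. The counts of called genes under the other alternatives stayed within 1.5 times of those reported. The mean over each gene's probe sets came close to that limit, with 583 genes changed at least 2-fold against 864. Where each gene was given the middle of its probe sets by difference, the sign of these called values turned: DKK2 -0.37 (its difference between backgrounds -0.035), MAML3 -0.025, APCDD1 -0.0025, ACTA2 -0.0325, EMCN 0.0925, and, over every probe set of the list, the medians of Hippo components -0.1025 and AP-1 factors -0.015; the cause was not tested. By the calls of single probe sets, 5 named genes (COL1A1, DKK2, IDI1, TEAD2 and YAP1) had a probe set called in the opposite direction. Of the 30 list medians, 16 more moved beyond the spread between arrays over every probe set, 9 with the mean over probe sets, 8 and 12 with the filters at 5 and 7, and 4 with quantile normalization. With the mean over probe sets the median was -0.88 for TEAD targets, -0.66 for hypoxia genes, -0.51 for mitosis genes and 0.53 for fibroblast markers. Of 188 named genes, 13 lost their call with the middle probe set, APC and the endothelial marker EMCN lost theirs with the mean over probe sets, and those of the endothelial marker ESAM and the leukocyte marker ITGAM were lost under some single left-out arrays; ESAM also lost its call with quantile normalization and ITGAM with trended, robust moderation. The share of promoters with GGAATG in the upstream 250 bases alone was 13.5% among genes lower and 7.07% among genes higher by at least 2-fold.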

Other observations

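Several gene families were looked at besides the lists, and they were picked after their values were seen. Some of their members are also in the lists, and not every family moved in 1 direction. Over all genes, 20.7% were called higher and 22.8% lower, and in sibcat cells 18.0% and 13.7%. Of 9 pregnancy-specific glycoprotein (PSG) genes, 8 fell, with a median of -2.43 (PSG5 at -0.32 was not called), and all 9 fell in sibcat cells, with a median of -2.27; their probe sets may read one another. Of 7 metallothionein genes (MT1 and MT2), which bind zinc and copper, all 7 fell, with a median of -0.55 and MT1F at -0.81, while 0 of 7 were called in sibcat cells. Their probe sets may also read one another, so these falls may not be separate. MT1M was low in both groups (2.88 in siAPC and 2.45 in siAPC/siTAZ). The aldo-keto reductases AKR1C1, AKR1C2 and AKR1C3, which act on steroids, rose by 2.04, 2.03 and 1.62. Probe sets of AKR1C1 and AKR1C2 may read one another as well. AKR1C1 and AKR1C2 ended 0.25 and 0.26 above the control and AKR1C3 ended 0.14 below it (-0.14), after all 3 had fallen in siAPC cells.

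Of 22 matrix metalloproteinases, 10 rose, 0 fell and 12 were not called, with MMP1 at 3.56, MMP13 at 2.10, MMP10 at 1.51 and MMP7 at 1.03. MMP7 had dropped by 2.66 in siAPC cells and remained 1.62 below the control (-1.62). Of 6 type IV collagen chains, COL4A1 (0.62), COL4A2 (0.49), COL4A5 (0.55) and COL4A6 (0.99) rose, and COL4A3 and COL4A4 fell by 3.46 and 3.27, to levels not called against the control. The Notch targets HEY1 and HEY2 rose by 2.48 and 1.77, and HEYL was not called (-0.06). Of 14 CXCL chemokines, 8 rose and 1 (CXCL16, -0.42) fell.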
